A study of Homo sapiens with 8 samples.

Results

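The regions described here had no ATAC-seq peak in solvent-treated MCF10A cells or after 6 h of TGFβ1, and carried one after 24 h and again after 72 h. They were selected on the presence of peaks alone: the 4 lists were merged wherever peaks shared at least 1 bp, and a region was kept when it held a peak at 24 h and at 72 h and none in the other lists. This gave 9558 of 126658 merged regions (7.55%). Absence of a peak means that no peak reached the authors' threshold, not that the chromatin was shut.

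MCF10A is an immortalised, non-tumorigenic human breast epithelial line. The 8 libraries comprised 2 replicates each of solvent-treated cells, which the labels place at 0 h, and of cells given 5 ng/ml TGFβ1 for 6, 24 or 72 h. A figure legend of the study names the 72 h time for its solvent control instead. All groups were genotype WT, the solvent was BSA in PBS, and every group grew in medium with horse serum, EGF, hydrocortisone, cholera toxin and insulin. Peaks had been called once per condition on both replicates together, so every value below is 1 value per condition with no replicate spread, and no difference between conditions could be tested.

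TGFβ1 binds a receptor kinase pair at the cell surface that phosphorylates SMAD2 and SMAD3, which enter the nucleus with SMAD4 and bind DNA together with other transcription factors, among them AP-1 and RUNX proteins. In mammary epithelial cells prolonged TGFβ1 exposure brings about epithelial-mesenchymal transition (EMT), in which cell-cell junctions are given up and matrix, cytoskeletal and migration genes are turned on. ATAC-seq marks DNA that is accessible to a transposase, most of it promoters and enhancers.

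Sequences from GRCh38, plus strand, 100 bp either side of the 72 h summit, are shown for members that the motif results below turn on. Capitals mark AP-1 letters (TGAGTCA) and RUNX letters (TGTGGTT), read on both strands. The first 3 are the only ones of the 10 members with the strongest signal at both times that hold AP-1 letters here.
CDK8, 49.2 kb downstream, chr13:26449174-26449374: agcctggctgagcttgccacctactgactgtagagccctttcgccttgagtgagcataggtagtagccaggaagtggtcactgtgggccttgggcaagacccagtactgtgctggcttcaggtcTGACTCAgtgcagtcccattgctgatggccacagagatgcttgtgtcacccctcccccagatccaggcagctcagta
CDH10, 160 kb upstream, chr5:24804467-24804667: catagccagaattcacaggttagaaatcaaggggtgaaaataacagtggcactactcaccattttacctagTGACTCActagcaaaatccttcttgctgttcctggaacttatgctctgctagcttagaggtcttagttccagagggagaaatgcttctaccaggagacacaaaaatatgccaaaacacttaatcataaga
ME3, intron, chr11:86623041-86623241: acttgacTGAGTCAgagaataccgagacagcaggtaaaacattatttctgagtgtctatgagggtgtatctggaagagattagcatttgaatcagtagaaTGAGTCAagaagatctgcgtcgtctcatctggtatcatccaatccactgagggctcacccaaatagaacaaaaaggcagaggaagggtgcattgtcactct
The next pair are among the 5 members whose signal was highest at 72 h relative to 24 h, and both hold RUNX letters.
BRINP2, 26.3 kb downstream, chr1:177283078-177283278: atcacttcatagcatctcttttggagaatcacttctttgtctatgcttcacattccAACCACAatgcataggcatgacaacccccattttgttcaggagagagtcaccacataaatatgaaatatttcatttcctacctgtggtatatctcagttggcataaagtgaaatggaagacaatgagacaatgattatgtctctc
RGS18, 10.0 kb upstream, chr1:192148330-192148530: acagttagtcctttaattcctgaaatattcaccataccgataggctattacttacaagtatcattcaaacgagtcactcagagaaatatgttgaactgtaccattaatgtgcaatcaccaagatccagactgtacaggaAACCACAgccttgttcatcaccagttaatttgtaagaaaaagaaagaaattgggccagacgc
The last pair lie inside genes for secreted proteins that act on the matrix, PLAU and TGFBI, and hold neither set of letters.
PLAU, coding exon, chr10:73913239-73913439: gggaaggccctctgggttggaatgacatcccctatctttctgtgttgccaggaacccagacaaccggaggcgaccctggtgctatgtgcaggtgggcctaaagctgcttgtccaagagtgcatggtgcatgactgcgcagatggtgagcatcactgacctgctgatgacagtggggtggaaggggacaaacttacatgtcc
TGFBI, intron, chr5:136049765-136049965: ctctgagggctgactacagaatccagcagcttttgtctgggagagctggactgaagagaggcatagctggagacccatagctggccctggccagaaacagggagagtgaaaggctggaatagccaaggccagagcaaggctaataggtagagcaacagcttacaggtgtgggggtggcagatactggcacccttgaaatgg

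Peaks numbered 86209 in the solvent list, which was the shortest, against 107656, 118433 and 116720 in the lists for 6, 24 and 72 h. The smallest AUC was 200 in each. As a check of the cell label, the promoters of 10 of 10 basal mammary epithelial marker genes, KRT5, KRT14 and TP63 among them, held a peak in every list. Of 3 T and B cell marker promoters 0 held a peak in solvent and 1 in each TGFβ1 list, 1 of 2 endothelial ones held a peak throughout, and the hepatocyte marker promoter held none.

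Signal was measured as the AUC, the area under the peak caller's significance curve, which grows with the height and width of a peak and with the depth of the library. No scaling had been applied across conditions. The members were weak peaks. Their summed AUC had a median of 308 at 24 h (interquartile range 251 to 393, highest 2180) and 345 at 72 h (266 to 476, highest 2975). Regions with a peak in all 4 lists had medians of 1265 and 1204, and those open throughout TGFβ1, meaning at 6, 24 and 72 h but not in solvent, had 458 and 443. Members were also narrow, with a median width of 240 bp against 542 bp for regions in all 4 lists. The median −log10 q at the summit was 4.29 at 24 h and 4.45 at 72 h.

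Because a peak had to pass an AUC of 200, the edge of the group is soft. Of the members, 964 (10.1%) had a 24 h AUC below 220, with medians of 210 at 24 h and 274 at 72 h. Just outside the rule stood 1407 regions that were absent in solvent and had a 6 h AUC below 220; their median AUC was 210 at 6 h and then 345 and 340. At both times 1718 members (18.0%) had an AUC of at least 400.

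Signal tended to be higher at 72 h than at 24 h. The AUC was higher at 72 h in 6097 members (63.8%), and the median log2 ratio of 72 h over 24 h was 0.15 (interquartile range −0.13 to 0.48). Over all 107019 regions with a peak at both times the median was −0.08 and 34.7% were higher at 72 h. A 2-fold or larger gain was seen in 516 members (5.40%, 95% Wilson interval 4.96 to 5.87), against 0.757% of all regions with both peaks. A 2-fold or larger loss was seen in 36 members (0.377%, 0.272 to 0.521), against 0.765%. Regions open throughout TGFβ1 gave 1.01% and 1.29%. Since the members were chosen by presence at 24 h and 72 h and absence before, these ratios describe the group and are no test of it. A member with a 24 h AUC below 400 could not show a 2-fold loss, because its 72 h peak had to reach 200. The 24 h bands from 200 to 250, 250 to 300 and 300 to 400 held 24.4%, 22.5% and 29.6% of members. Losses were thus cut off by the threshold and cannot be set against gains or other regions on equal terms. Part of the ratio went with peak width, since on AUC per base the median was 0.08 and the 2-fold gains 1.40%. The map of signal at 24 h against 72 h shows the crowding near the threshold and the tail above the 2-fold line.

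**Figure D1:**
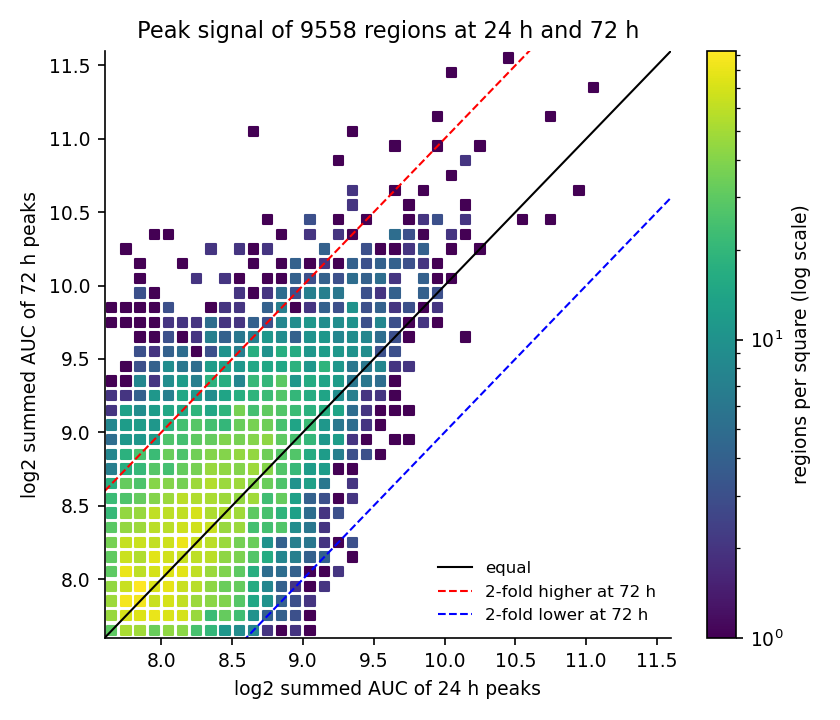
Summed AUC of the members' 24 h peaks (x axis, log2) against that of their 72 h peaks (y axis, log2); each square is coloured by its number of regions, on a log scale, and lines mark equality and 2-fold change. Most of the 9558 regions lie close to the lower left corner, and 516 lie on or above the upper dashed line against 36 on or below the lower one.

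The strongest members were spread over many loci. PLAU is the urokinase plasminogen activator, which starts a proteolytic cascade in the matrix. The member ranked first by the smaller of its 24 h and 72 h AUCs, chr10:73912619-73914872, spanned a coding exon of PLAU, 2.19 kb downstream of a TSS. Its AUC was 2180 at 24 h and 2622 at 72 h. It lay 0.396 kb from a region that already had a peak in solvent.

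TGFBI, a secreted matrix protein induced by TGFβ, held 5 members, 4 of them within 3 kb of a TSS. The member at chr5:136043552-136044712 had AUCs of 1704 at 24 h and 1392 at 72 h. Its neighbour at chr5:136048623-136050629, an intronic region 0.349 kb downstream of a TSS, had 1003 and 1955. The former was lower at 72 h and the latter 1.95-fold higher. Between them lay a member, named after its values were seen, at chr5:136046192-136047555 with 589 and 267, a log2 ratio of −1.14. The strong pair lay 0.223 and 0.182 kb from a solvent region.

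The other strong members lay at varied distances from chromatin that was open earlier. A region at chr3:94225108-94225723, 149 kb from the nearest protein-coding TSS, that of NSUN3, had AUCs of 1252 and 1205 and lay 62.1 kb from any solvent region, but only 0.341 kb from a region gained at 6 h. A region in an intron of WDFY3, a scaffold of selective autophagy, chr4:84877130-84877941, had 1170 and 1910 and lay 62.2 kb from a solvent region and 6.45 kb from an early gain. The strong regions near CDH10 (chr5:24804143-24804831), a classical cadherin gene, and in ME3 (chr11:86622958-86623702), a mitochondrial malic enzyme gene, had AUCs of 1193 and 1930, and 1171 and 1438. The region near PLD5, chr1:242763736-242764539, reached the highest 72 h AUC of all, 2975, from 1417 at 24 h. The rest of the 10 strongest lay near LIPF (1737 and 2203), RAB4A (2034 and 1585) and CDK8 (1469 and 1399). The regions near RAB4A, PLD5 and CDK8 lay 2.32, 5.89 and 7.41 kb from a solvent region.

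The largest relative gains after 24 h began from weak peaks. Near BRINP2 the AUC was 218 at 24 h and 1198 at 72 h (log2 ratio 2.46), and near RGS18, a regulator of G protein signalling, it was 412 and 2185 (2.41). AOAH (249 and 1304) and WDR64 (230 and 1127) were also among the 5 highest ratios. At the other end the regions near SORCS2 (518 and 200), TNR (487 and 201), ACMSD (578 and 242) and MPDZ (489 and 209) were among the 5 lowest ratios, and each of these had a 72 h peak close to the threshold. Among proximal members HHAT, the acyltransferase of Hedgehog proteins, had the largest gain of the 5 strongest, from 1026 to 2789 at chr1:210438807-210439728, 0.156 kb upstream of a TSS. CRACD at chr4:56307378-56307880 was nearly level, at 1065 and 1195.

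Members lay away from transcription start sites. Of all members 1786 (18.7%, 17.9 to 19.5) were proximal, meaning within 3 kb of any annotated TSS, against 40.3% of regions in all 4 lists, 22.6% of those open throughout TGFβ1 and 18.5% of those seen at 72 h alone. The median distance from a protein-coding TSS was 35.8 kb (interquartile range 10.3 to 127 kb), against 12.5, 27.2 and 36.1 kb. By annotation 57.5% of members were intronic, 36.6% intergenic, 1.73% in UTRs and 1.07% in coding exons, and 49.8% lay upstream of their nearest TSS.

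The share of merged regions that were members rose with distance. It was 1.92% (1.74 to 2.12) within 1 kb of a protein-coding TSS, 5.08% from 1 to 3 kb, 7.93% from 10 to 30 kb, 11.2% from 100 to 300 kb and 14.1% (13.3 to 14.8) beyond 300 kb. Among distal regions as a whole it was 9.35%. By chromosome the share ran from 3.38% (2.83 to 4.04) on chromosome 19, which is rich in genes, to 9.71% (9.03 to 10.4) on chromosome 4, which is poor in them. The bar plot of the share by distance shows an increase at every step.

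**Figure D2:**
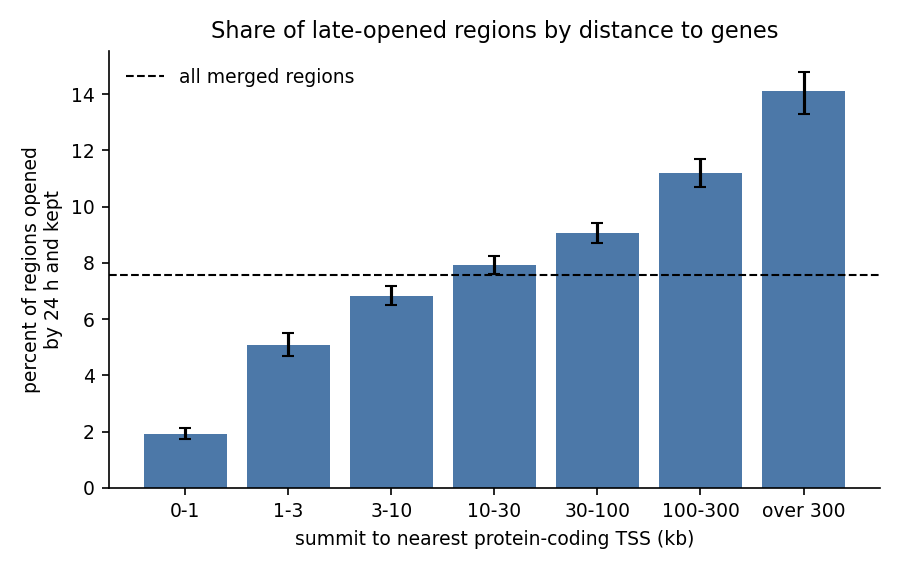
Percent of merged regions that opened by 24 h and were kept (y axis) in each band of distance from the 72 h or other summit to the nearest protein-coding TSS (x axis, kb); bars carry 95% Wilson intervals and the dashed line is the 7.55% of all regions. The share rises from 1.92% within 1 kb to 14.1% beyond 300 kb.

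Promoter opening was the exception. Of 19970 protein-coding genes, 431 (2.16%) had a member within 1 kb of a TSS. For 97 of these no region with a solvent or 6 h peak lay within 1 kb of any TSS of the gene. The following examples were chosen after their values were seen. A member overlapped a TSS of PTGIR, the prostacyclin receptor, with AUCs of 609 at 24 h and 722 at 72 h. A member 979 bp from a TSS of TNN, tenascin-N of the matrix, had 587 and 868. One lay 718 bp from a TSS of TIE1, a receptor tyrosine kinase best known from endothelium, with 535 and 631, and one 625 bp from CLDN5, a tight junction claudin, with 571 and 530. One 27 bp from F13A1, the catalytic subunit of coagulation factor XIII, had 570 and 426.

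Sequence near the summit was not used to choose members. AP-1 letters occurred in 41.5% of members (40.5 to 42.5), against 32.4% of all merged regions and 31.4% of regions in all 4 lists. The share was 40.1% (39.4 to 40.8) in those open throughout TGFβ1 and 37.5% (36.2 to 38.7) in those at 72 h alone. Members had less GC than regions in all 4 lists (median 44.8% against 50.2% of bases), and 24.0% of them had no CpG in the window against 11.2%. Regions open throughout TGFβ1 had a median of 45.3% GC and 19.2% without CpG, and those at 72 h alone 42.8% and 28.3%. Within windows of 40 to 50% GC, a restriction added after the data were seen, the AP-1 share was 42.2% (40.9 to 43.6) in members and 41.0% (40.5 to 41.6) in regions of all 4 lists. It was 41.3% (40.3 to 42.3) there in regions open throughout TGFβ1 and 38.0% (36.3 to 39.8) in those at 72 h alone. Over all windows the AP-1 share of members thus stood above regions in all 4 lists and at 72 h alone. Its interval overlapped that of regions open throughout. At matched GC it lay next to all 4 lists and open throughout, but above 72 h alone. AP-1 letters gathered at the summit: the 20 bp just left of it held 10.1 sites per 100 distal members. At 290 bp there were 0.257 to the left and 0.335 to the right. The other groups also peaked there, with 9.02 per 100 distal regions open throughout TGFβ1, 7.54 at 72 h alone and 7.67 in all 4 lists.

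TEAD, RUNX and SMAD letters differed more. TEAD letters (GGAATG), read by the partners of YAP and TAZ, occurred in 21.6% of members (20.8 to 22.4), 17.5% (17.0 to 18.1) of regions open throughout TGFβ1, 20.8% of those at 72 h alone and 14.9% of those in all 4 lists. At 40 to 50% GC the shares were 22.9% (21.8 to 24.1), 18.9%, 21.4% and 17.9%. RUNX letters followed the time of opening, with 5.85% in all 4 lists, 7.49% (7.12 to 7.89) open throughout TGFβ1, 9.28% (8.71 to 9.88) in members and 12.6% (11.8 to 13.5) at 72 h alone. At 40 to 50% GC the shares were 7.59%, 7.83%, 9.84% (9.06 to 10.7) and 11.2% (10.1 to 12.4), with overlapping intervals in the first pair and in the last.

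SMAD letters were most frequent in members and in regions open throughout TGFβ1. The 6 letters CAGACA occurred in 22.8% (22.0 to 23.7) of members and 23.4% (22.8 to 24.0) of regions open throughout TGFβ1, but in 17.6% (16.7 to 18.6) of those at 72 h alone and 17.0% of those in all 4 lists. The full palindrome GTCTAGAC was rare, in 59 members (0.617%, 0.479 to 0.795), 0.575% (0.475 to 0.696) of regions open throughout TGFβ1, 0.240% of those at 72 h alone and 0.209% of those in all 4 lists. In lists cut to equal length, an alternative added after the data were seen, CAGACA stood at 31.2% (29.9 to 32.5) in regions open throughout, 27.2% (25.8 to 28.6) in members and 20.1% in those at 72 h alone, so there the members lay in between. RUNX stood there at 5.97% in all 4 lists, 8.80% open throughout, 12.1% (11.1 to 13.1) in members and 13.6% (12.5 to 14.7) at 72 h alone, the last pair overlapping. E-box letters (CACCTG), read by SNAIL and ZEB repressors, were found in 13.6% of members and 18.8% of regions in all 4 lists. Regions open throughout TGFβ1 had 14.6% and those at 72 h alone 14.5%, so a low share was not particular to the members. At 40 to 50% GC the E-box shares were 13.0% in members, 14.2% open throughout, 16.0% at 72 h alone and 16.3% in all 4 lists. A match is a description of letters and not a bound site. The bar plot of motif shares sets the groups side by side.

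**Figure D3:**
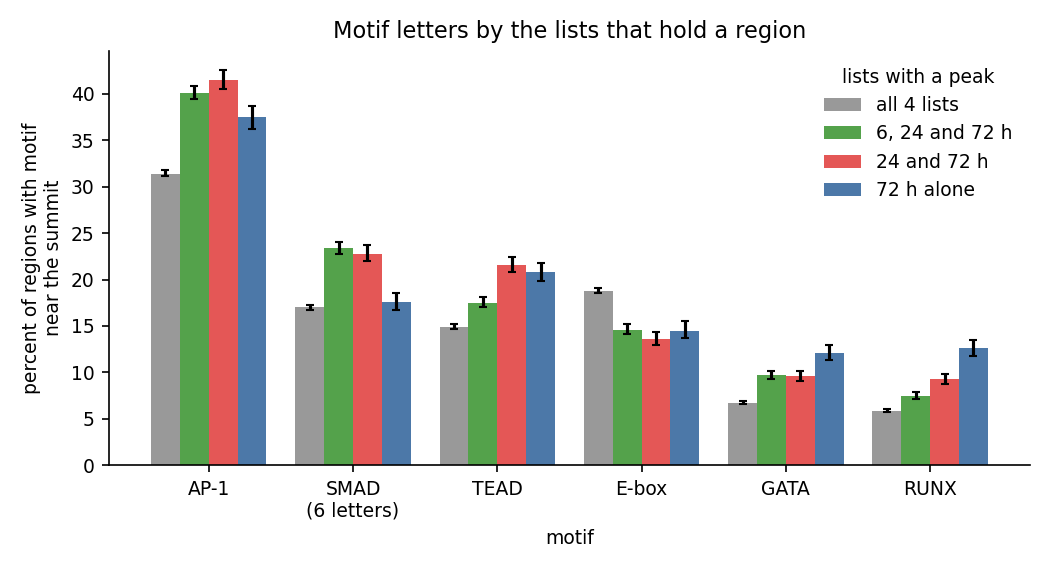
Percent of regions (y axis) with each motif's letters within 100 bp of the summit (x axis; SMAD is CAGACA), for regions grouped by the lists that hold a peak; bars carry 95% Wilson intervals. RUNX rises from 5.85% in all 4 lists to 12.6% at 72 h alone, and SMAD falls from 22.8% in the members to 17.6% at 72 h alone.

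Within the members, the motif content changed with the course of the signal. Members were split into 4 groups of equal size by their log2 ratio of 72 h over 24 h. RUNX letters occurred in 6.11% (5.22 to 7.14) of the group with the lowest ratios, then in 7.49% and 8.54%, and in 15.0% (13.6 to 16.5) of the group with the highest. TEAD letters rose from 18.6% (17.1 to 20.2) to 25.4% (23.7 to 27.1). AP-1 letters were at 41.3%, 42.2% and 44.3% in the first 3 groups and 38.2% (36.3 to 40.2) in the last.

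Among the 516 members that gained 2-fold or more, RUNX letters occurred in 21.1% (17.8 to 24.9), TEAD letters in 28.9% (25.1 to 32.9) and AP-1 letters in 29.5% (25.7 to 33.5). Among the 9006 members that moved less than 2-fold either way the shares were 8.62% (8.05 to 9.21), 21.2% and 42.2% (41.2 to 43.3). Members with a 2-fold gain held RUNX letters more often and AP-1 letters less often than those, beyond counting error. A low AP-1 share was not limited to gains, since the 36 members that were 2-fold lower had 27.8% (15.8 to 44.0). Regions open throughout TGFβ1 showed the same for RUNX, with 16.9% (12.2 to 23.0) of 183 regions that gained 2-fold and 7.45% of the others, so this was not particular to the members. GC content was lower in the groups with higher ratios, from a median of 46.3% to 43.3%, yet at 40 to 50% GC the RUNX share still ran from 6.41% (5.18 to 7.92) to 15.6% (13.8 to 17.6). On AUC per base the lowest and highest groups gave 7.70% and 13.8%, and in lists of equal length 7.76% and 18.6%. The windows near BRINP2 and RGS18 printed above are examples, while that near TNR, among the 5 with the lowest ratios, also holds RUNX letters.

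**Figure D4:**
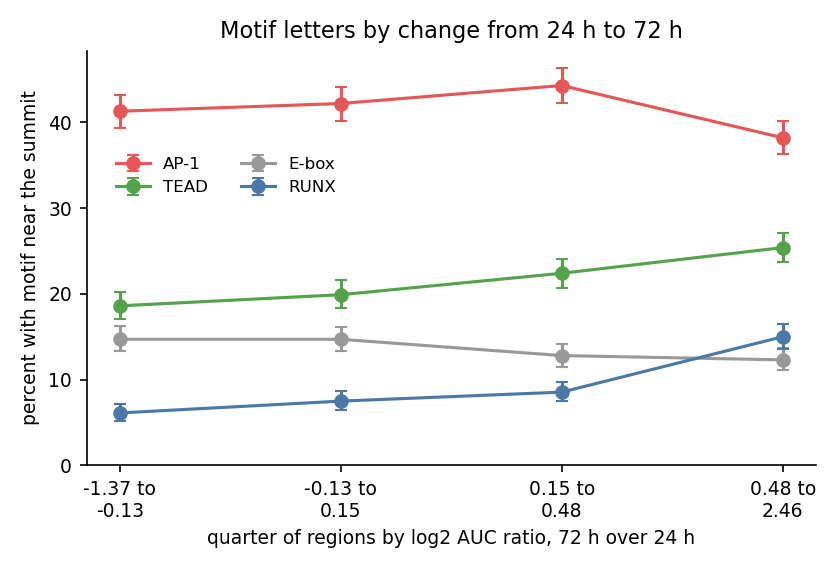
Percent of members (y axis) with each motif's letters within 100 bp of the 72 h summit, in 4 equal groups of members by log2 AUC ratio of 72 h over 24 h (x axis); points carry 95% Wilson intervals. RUNX goes from 6.11% to 15.0% and TEAD from 18.6% to 25.4%, while AP-1 is lowest, at 38.2%, in the last group.

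Earlier gains near the members were common but no more so than elsewhere. An early gain was a region with a peak at 6 h and none in solvent. One lay within 50 kb of 64.0% of members (63.0 to 64.9), against 67.5% of regions open throughout TGFβ1, 64.8% of those at 72 h alone and 70.3% of those in all 4 lists. The median gap was 31.6 kb, against 27.3, 30.9 and 25.2 kb. Within 10 kb the shares were 22.6% and 26.8%, 23.1% and 28.3%. Members thus lay slightly farther from early gains than regions open throughout did. These groups are not on equal terms, because every region open throughout is itself an early gain and a member never is.

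Members likewise lay farther from chromatin that was open in solvent, with a median gap of 11.3 kb against 7.67 kb for regions open throughout TGFβ1 and 4.92 kb for regions in all 4 lists, but not than regions at 72 h alone, at 12.0 kb. Regions in all 4 lists are themselves open in solvent, so their gap runs to another region of that kind. Only 1175 members (12.3%) came within 1 kb of a region with a solvent or 6 h peak, and 33.2% of these held AP-1 letters. The 778 members (8.14%) more than 50 kb from any such region held them in 45.2%. Most members stood alone: 61.2% had no other member within 50 kb, and 1596 runs of 2 or more held the other 38.8%. The longest run, 10 members in 232 kb at chr4:168484642-168717044, lay over DDX60L and PALLD, an actin-crosslinking protein of stress fibres, with 9 early gains in between; 9 of the 10 were higher at 72 h. Next came 7 members over 153 kb at EVA1A (chr2:75394857-75547676) and 6 over 117 kb at HMHB1 and YIPF5 (chr5:143887282-144004529).

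By nearest TSS the members fell to 5084 protein-coding genes (25.5%). Of these 3062 had 1 member and 328 had 5 or more. An early gain was also assigned to 3925 of them (77.2%), against 43.9% of genes with regions but no member. Among genes with like numbers of regions the shares were 7.45% and 18.4% at 1 to 2 regions, 45.8% and 51.7% at 3 to 5, 77.9% and 76.3% at 6 to 10, and 95.3% and 93.6% at 11 to 20. A member is never an early gain itself, so a gene whose only region is a member counts as without one. The lower shares at few regions thus follow at least in part from the counting. A nearest gene is a position, not a target.

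TENM2, a teneurin, had the most members, 19 of its 119 regions. Their 24 h AUCs ran from 201 to 825 and their 72 h AUCs from 277 to 1122. Of the 19, 17 were higher at 72 h, against 63.8% of all members. ADGRL3, a latrophilin receptor, had 15 of 78, of which 14 were higher at 72 h. FLRT2, a leucine-rich repeat protein, had 13 of 82, of which 11 were higher.

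The ranking changed with the lists. In lists of equal length ADGRL3 and SUGCT had 7 members each, TENM2 5, RUNX1 4, MACROD2, PCDH7 and FLRT2 3, KHDRBS3 and PIK3C3 2 and LRRC4C 1. In the full lists LRRC4C, a ligand of netrin-G, had 17 of 71 regions, and PCDH7, a protocadherin, had 15 of 86. MACROD2 had 16 of 67, SUGCT 14 of 59 and KHDRBS3, an RNA-binding protein, 13 of 67. In RUNX1, one of the RUNX factors, 13 of 93 regions were members, with 24 h AUCs from 223 to 581 and 72 h AUCs from 213 to 756; 6 were higher at 72 h, and 20 early gains lay there too. PIK3C3, a lipid kinase gene, had 13 of 90, 6 of them higher.

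Of the gene lists, mesenchymal cadherins and adhesion had the highest share of members, 46 of 347 regions (13.3%, 10.1 to 17.2), against 7.55% of all regions. CDH6 had 10 of its 32 regions (31.2%), with 72 h AUCs from 208 to 606 and none nearer than 73.1 kb to a TSS. CDH2, N-cadherin, had 9 of 53, with 24 h AUCs from 211 to 704 and 72 h AUCs from 258 to 900, beside 12 early gains. CDH11 had 9 of 45 and CDH4 7 of 33. For CDH11 only 3 of 9 were higher at 72 h. Over all members 63.8% were, which is the base for such counts in the gene lists. Among distal regions alone the list stood at 14.2% (10.7 to 18.7), against 9.35% of all distal regions. Many cadherin members lay far from a TSS, up to 1996 kb at CDH6, 1240 kb at CDH2 and 878 kb at CDH11. Over all genes the share was 11.2% at 100 to 300 kb and 14.1% beyond 300 kb. The gene lists were not matched for distance, so whether the cadherin share exceeds that of equally distant regions was not tested.

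EMT transcription factors had 38 of 343 regions (11.1%, 8.18 to 14.8), or 11.9% (8.59 to 16.4) of the distal ones, where the interval takes in the background. ZEB2, a repressor of E-cadherin, had 8 of its 54 regions (14.8%), lying 31.3 to 1256 kb from a TSS. Of these 8 members, 7 were higher at 72 h and 5 held AP-1 letters. Their 24 h AUCs ran from 269 to 438 and their 72 h AUCs from 245 to 618. The study did not inactivate TWIST1, TWIST2 or ZEB2, stating that they lacked expression or a TGFβ1 response in its MCF10A cells. SOX9 had 7 of 84 (8.33%), SOX4 7 of 31 (22.6%) and PRRX1 4 of its 14 regions. TWIST2, FOXC2 and TCF3 had none. In lists of equal length the share was 4.04%, close to the 3.94% of all regions there, while cadherins stood at 9.05%, extracellular matrix genes at 8.10% and guidance genes at 6.29%.

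Guidance receptors and ligands, which steer migrating cells and axons, had 93 of 927 regions (10.0%, 8.26 to 12.1), or 10.7% (8.70 to 13.1) of the distal ones, where the interval again takes in 9.35%. EPHA4, an ephrin receptor, had 12 of 48. The strongest of these, at chr2:221517461-221518008 in an intron, had AUCs of 757 and 958 and lay 0.271 kb from an early gain, and 9 of the 12 were higher at 72 h. SLIT2, a ligand of ROBO receptors, had 10 of 45, SEMA5A 9 of 63 and PLXNA2 9 of 69.

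For the other lists the interval took in 7.55%. Extracellular matrix genes had 75 members of 811 regions (9.25%, 7.44 to 11.4). LAMA3 had 6 of 44, TGFBI 5 of 33 and THBS1 5 of 47. Of the 75, 50 were higher at 72 h, close to the 63.8% of all members. With an AUC of at least 400 in every list the share of matrix regions that were members was 12.2%, against 7.29% of all regions. Genes of actin and contraction had 47 of 540 (8.70%). PALLD had 7 of 60, DIAPH3 6 of 24, PDLIM5 4 of 26 and DIAPH2 4 of 18. TGFβ ligands, receptors and SMADs had 59 of 691 (8.54%), of which 45 were higher at 72 h and 33 held AP-1 letters. Within that pathway ACVR2A, an activin receptor, had 9 of 50 and ID4, an inhibitor of helix-loop-helix factors, had 8 of 33. BMPR1B, a BMP receptor, had 6 of 38, and LTBP1, which holds latent TGFβ in the matrix, had 5 of 38. TGFB1, SMAD4, SKI, SKIL and ID1 had none.

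AP-1 factors had 18 of 222 (8.11%), with 5 of 52 at BACH2 and 4 of 28 at BACH1 but none at FOS, FOSL1 or JUNB. This list fell below the background in the stricter lists, at 3.47% against 7.29% with an AUC of at least 400 in every list and 1.12% against 3.94% with lists of equal length. Matrix enzymes had 7.69%, WNT genes 7.34%, and YAP, TEAD and RUNX genes 7.26%. Epithelial identity regulators had 26 of 409 (6.36%), with 7 of 62 at TFAP2A and 6 of 48 at KLF4. Of the 26, 21 were higher at 72 h, with a median log2 ratio of 0.42. Epithelial junction genes had 20 of 318 (6.29%), at 11 of the 27 genes, with 5 of 28 at DSC3 and 3 of 33 at TJP1. CDH1, EPCAM and OCLN were among the genes without a member. Ribosomal protein genes had 5.43% and integrins 5.14%. Regions of 1 gene are not independent, and the intervals cover counting error only. The plot of gene lists shows which intervals clear the background.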

How the data were processed

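ATAC-seq libraries of MCF10A cells (4 conditions, 2 replicates each) had been processed by the authors: per their methods and the submitters' processing notes, reads were trimmed (Trimmomatic 0.38), mapped to GRCh38 (Bowtie2 2.4.5), cleared of duplicates (Picard) and of mitochondrial and poorly mapped reads (SAMtools 1.4.1), and peaks were called on both replicates together with Genrich 0.5 (AUC above 200). The deposited signal value is the AUC of a peak and the deposited −log10 q belongs to its summit. Neither was scaled between lists, and they hold no reads. The study states 1 planned depth for all libraries, but the depth after filtering is unknown. Each list's condition was taken from its name.

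Peaks sharing 1 bp were merged and AUCs summed per region (Python 3.11.15, pandas 2.3.3, pysam 0.24.0). Genes came from GENCODE 44 and sequence from hg38, the same build. For shares 95% Wilson intervals were given, covering counting error only. Scripts were tested on simulated lists. Named regions were the 10 strongest members by the smaller AUC of 24 and 72 h, the 5 strongest proximal ones, the 5 highest and 5 lowest ratios and 3 runs. Named genes were the 10 with most members and up to 4 per list. All 14 gene lists and 14 motifs, and the members themselves, were chosen with earlier results of these data known. Alternatives were stricter or equal-length lists, other overlap and merging, other windows, AUC per base and other gene assignment. The authors' test of differential accessibility was not used, and a few items that the naming rule selects are not reported here.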

Additional observations from a re-analysis of the deposited data

How the results depend on the processing

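No paired analysis was possible because each list pools both replicates, and for the same reason no replicate could be left out. The median ratio stayed above 0 in all alternatives run, but the shares of several gene lists crossed that of all regions. With an AUC of at least 400 in every list TGFβ genes stood at 6.64%, AP-1 factors at 3.47% and matrix enzymes at 6.88%. With lists of equal length TGFβ genes stood at 3.42%, AP-1 factors at 1.12%, actin genes at 3.89% and YAP, TEAD and RUNX genes at 4.07%, the last also crossing on merging over gaps (7.67%). With the 400 applied to members alone matrix enzymes stood at 0.592%, AP-1 factors at 0.450% and ribosomal protein genes at 1.81%. With an AUC of at least 400 required in every list, members made up 7.29% of regions, the median log2 ratio of 72 h over 24 h was 0.10, 2-fold gains were 1.47% and losses 0.0708%, 59.8% had an early gain within 50 kb and 42.7% held AP-1 letters. With the 400 applied to members alone, there were 1709 members (1.35%) at 1399 genes, 17.0% were proximal, the ratio was 0.24, gains were 3.63% and losses 0%, and 39.4% held AP-1 letters; that count takes the strongest peak per list, not the sum. With lists of equal length there were 3920 members (3.94%) at 2746 genes, 17.2% proximal, a ratio of 0.13, gains of 1.71%, losses of 0.0510%, 33.1% near an early gain and 43.9% with AP-1 letters. With an overlap of 50% of both peaks, 20.9% were proximal, the ratio was 0.11, gains were 4.22% and 72.6% had an early gain. There a 6 h peak that overlapped the member itself by less than 50% could count as its early gain. The share of all merged regions could not be given in that setting. Merging over gaps of 200 bp gave 61.6% with an early gain. Counting as proximal only 1 kb from any TSS gave 8.29%, and 3 kb from a protein-coding TSS 10.1%. AUC per base gave a ratio of 0.08, gains of 1.40% and losses of 0.251%. Windows of 10 and 100 kb gave 22.6% and 83.9% with an early gain. AP-1 letters anywhere in the merged region gave 44.0%, and assignment to the nearest gene of any type left 2929 protein-coding genes. Among gene counts, list shares and motif shares, 50 values stayed within 1.5 times the count or within the interval of the share. The other 60 did not, most of them under the stricter and the equal-length lists. TENM2 had 19 members in the full lists. It had 12 with an AUC of at least 400 in every list, 4 with the 400 applied to members alone and 5 with lists of equal length. Cutting every list at 400 also removed weaker solvent and 6 h peaks. Regions that held those could become members, so the 12 need not be among the 19. The depth after filtering is unknown, and most members lie near the AUC threshold, so whether a region was open below it at 6 h was not tested.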

Other observations

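Within 100 bp of the summit FOX letters (TGTTTAC) and SOX letters (ACAATGG) occurred in 3.49% and 2.82% of members, against 3.51% and 2.59% of all regions, and CTCF core letters in 0.0837% of members against 0.366% of all regions.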
